A study of Mus musculus with 15 samples.

Results

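The cardiac myosin heavy chains Myh6 and Myh7 and 4 genes of the fetal stress programme (Nppa, Nppb, Acta1 and Ankrd1) were followed across whole hearts of septic and sham-operated mice. Every probe set that the array annotation pairs with exactly 1 of these 6 symbols was used (6 of the 12393 genes that have a probe set of their own). This gave 8 of the 22626 probe sets measured in each of the 2 value tables: 1 each for Myh7, Nppa, Nppb and Acta1, and 2 each for Myh6 and Ankrd1. A further 2 probe sets are paired with both Myh7 and Myh6 and were assigned to neither gene.

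There were 15 arrays of whole-heart RNA, 3 in each of 5 groups, from mice killed 48 h after surgery. Wild-type C57/BL6 mice had either a sham operation, in which the caecum was mobilised and put back, or caecal ligation and puncture (CLP), which releases gut bacteria into the abdomen and causes polymicrobial sepsis. The wild-type CLP hearts carry the labels Min Dep (3 arrays) or Max Dep (3 arrays), which the labels do not spell out. The other 6 hearts, 3 sham and 3 CLP, came from congenic B6.129P2-Nos2tm1Lau/J mice, which lack inducible nitric oxide synthase in all cells. Every mouse, shams included, had isoflurane, buprenorphine and saline, then terminal ketamine and xylazine anaesthesia with carotid cannulation before the heart was frozen, and the labels give no ages. The RNA is that of whole hearts, so atrial and ventricular muscle and all other cell types are mixed, and fewer cells of a type and less RNA per cell cannot be told apart. Nothing but the sample's own code separates replicates in the labels, so the p-values measure only the spread between these samples, and the small number of arrays limits their precision.

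Adult mouse ventricle runs on the fast alpha-myosin heavy chain, encoded by Myh6, while the slower and more economical beta-myosin heavy chain, encoded by Myh7, predominates before birth. Under pressure load, hypothyroidism or failure the rodent heart lowers Myh6 and raises Myh7. Under pressure load or failure it usually raises other genes of fetal muscle as well. These include Nppa and Nppb, which encode the natriuretic peptides ANP and BNP, and Acta1, which encodes skeletal alpha-actin. Ankrd1 encodes CARP, a stress-induced ankyrin-repeat protein that binds titin in the sarcomere and also acts in the nucleus. Myh7 and Myh6 are neighbours on chromosome 14, and Nppb and Nppa are neighbours on chromosome 4.

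The proximal promoters are shown because several of these genes share a regulatory element there. The windows are the 250 bases before the annotated start, from RefSeq on GRCm38.p6, each written 5′ to 3′ on the gene's strand. Capitals mark MCAT elements, the site of the TEAD factors, searched as CATTCC on both strands (GGAATG on the other).
Myh7, chr14:54994627-54994876, minus strand: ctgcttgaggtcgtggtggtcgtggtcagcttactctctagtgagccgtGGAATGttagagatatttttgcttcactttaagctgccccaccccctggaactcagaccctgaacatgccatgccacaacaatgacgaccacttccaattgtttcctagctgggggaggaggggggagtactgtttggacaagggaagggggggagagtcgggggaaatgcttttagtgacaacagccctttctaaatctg
Myh6, chr14:54966608-54966857, minus strand: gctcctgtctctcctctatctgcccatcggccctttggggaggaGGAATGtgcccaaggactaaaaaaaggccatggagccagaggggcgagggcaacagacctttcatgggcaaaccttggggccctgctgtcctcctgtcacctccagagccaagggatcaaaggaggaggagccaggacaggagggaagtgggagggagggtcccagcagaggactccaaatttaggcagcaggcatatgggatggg
Acta1, chr8:123894776-123895025, minus strand: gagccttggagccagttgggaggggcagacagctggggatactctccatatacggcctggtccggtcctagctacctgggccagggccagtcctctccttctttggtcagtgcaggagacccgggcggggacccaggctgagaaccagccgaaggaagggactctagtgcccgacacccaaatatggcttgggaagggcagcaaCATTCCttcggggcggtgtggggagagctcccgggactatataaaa
Ankrd1, chr19:36119845-36120094, minus strand: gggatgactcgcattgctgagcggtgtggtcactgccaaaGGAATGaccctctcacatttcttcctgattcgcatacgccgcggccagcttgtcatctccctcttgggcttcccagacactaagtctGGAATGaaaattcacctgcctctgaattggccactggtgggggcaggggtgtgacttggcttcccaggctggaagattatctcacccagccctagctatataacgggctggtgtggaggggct
An MCAT match was present in a window of 5 of the 6 genes, all but Nppa, against 12.6% of all 32851 promoters of the same length. The 6 genes have 7 windows, and a gene counts when any of its windows matches, whereas the shares are of single promoters. The windows of Nppa, Nppb and the second Myh7 start are not printed. The Ankrd1 window held 2 matches. Myh7 has a second annotated start, and the window before that one held none. A CArG box, the site of SRF, was found only before Acta1 (1 of 6 genes, 1.47% of all promoters). The GATA form AGATAG or TGATAG was found only before Myh6 (1 of 6 genes, 13.3% of all promoters). The forms ending in A, AGATAA and TGATAA, were not searched, and 1 or both stand in the windows of Nppa, Nppb and Ankrd1. The thyroid hormone half-site in its exact form AGGTCA was found in none (0 of 6 genes, 14% of all promoters). Looser forms of that site were not searched, so its absence from these promoters cannot be read from this. The loose E-box CANNTG was found in all 6 (66.2% of all promoters). These matches are letters in a short window, not tested binding sites.

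The 2 tables are on different scales and were never set against each other in size. In the wild-type table every probe set had been standardised over its 9 arrays, so a value is in standardised units and holds neither a level nor a fold change. In such a table the largest difference that 3 arrays against 6 can show is 2 before the further scaling of each array, so a difference near that value says that the groups separate cleanly, not that the change is large. In the knockout table a value is a log-like difference from an unstated centre of the probe set, with the log base not given. Genotype, table and array model go together, and so cannot be told apart. Because both tables are centred, no level of any heart or other cell-type marker can be read from them, and the labelled tissue could be checked only by relative changes.

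Some arrays stood apart, first in the sex-linked genes Xist and Eif2s3y, and whether the animals differed in sex was not tested. Wild-type sham replicate 1 had Xist at 2.64 and Eif2s3y at -2.48 standardised units, while the other 8 wild-type arrays had Xist no higher than -0.17 and Eif2s3y no lower than -0.68. Knockout sham replicate 2 differed from the other knockout arrays in the opposite way, with Xist at -6.36 and Eif2s3y at 5.76 log units. Knockout CLP replicate 1 also had a low Xist value (-3.23), without a high Eif2s3y value (-0.06). Xist was at 0.20 to 0.69 in the remaining knockout arrays, CLP replicates 2 and 3 included. The column of knockout CLP replicate 1 lay between the other 2 CLP columns in 76.0% of probe sets. For the 3 sham columns that share was 32.8% to 34.4%. Its values also had an SD of 0.683, where the other knockout columns had 0.979 to 1.09. It was therefore left out of the knockout fit, and its values are given as description. Whether it is a separate measurement of its own was not settled, so statements on overlap in the knockout hearts rest on CLP replicates 2 and 3. Values of exactly 0 numbered 0 in knockout sham replicate 1 and CLP replicate 1, and 2992 to 3122 in each other knockout column. The source of that difference was not tested.

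Myh7 was the member with the cleanest change in the wild-type hearts: it was higher in all 6 septic hearts than in any sham heart. Its values in the sham hearts were -1.25, -1.33 and -1.44 standardised units. In the Min Dep hearts they were 0.52, -0.01 and 0.80, and in the Max Dep hearts 0.82, 1.12 and 0.89. The groups were ordered sham, Min Dep, Max Dep without overlap, although the highest Min Dep heart (0.80) lay next to the lowest Max Dep heart (0.82). Septic hearts exceeded sham hearts by 2.03 ± 0.18 standardised units (SE, n = 6 and 3, limma adjusted p = 0.0215), which ranked 33rd by p among all 22626 probe sets. Myh7 rose in the Max Dep hearts by 2.28 ± 0.21 (limma adjusted p = 0.0285) and in the Min Dep hearts by 1.78 ± 0.21 (limma adjusted p = 0.0459). Max Dep exceeded Min Dep by 0.50 ± 0.21 (95% interval -0.01 to 1.02, limma adjusted p = 0.511), which did not pass the test and was 0.28 without Min Dep replicate 2.

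Myh7 was the only one of the 8 member probe sets past an adjusted p of 0.05 in wild-type hearts: 1 of 8 in all septic against sham hearts, where 2.57% of all probe sets were called (1.08% higher). It was also 1 of 8 in Max Dep against sham (1.71% of all called, 0.990% higher) and 1 of 8 in Min Dep against sham (0.522% of all called, 0.128% higher). None of the 8 passed in Max Dep against Min Dep, where limma called 0% of all probe sets. There 0 of 8 members had an unadjusted p under 0.05, against 9.84% of all probe sets, and moderated statistics called none either. The Myh7 call in septic against sham hearts was lost when any of the sham arrays, Min Dep replicate 1 or Max Dep replicate 1 was left out, with differences of 1.98 to 2.07 and adjusted p of 0.0567 to 0.104. With moderated statistics, which called no probe set in the table, its limma adjusted p was 0.120.

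**Figure D1:**
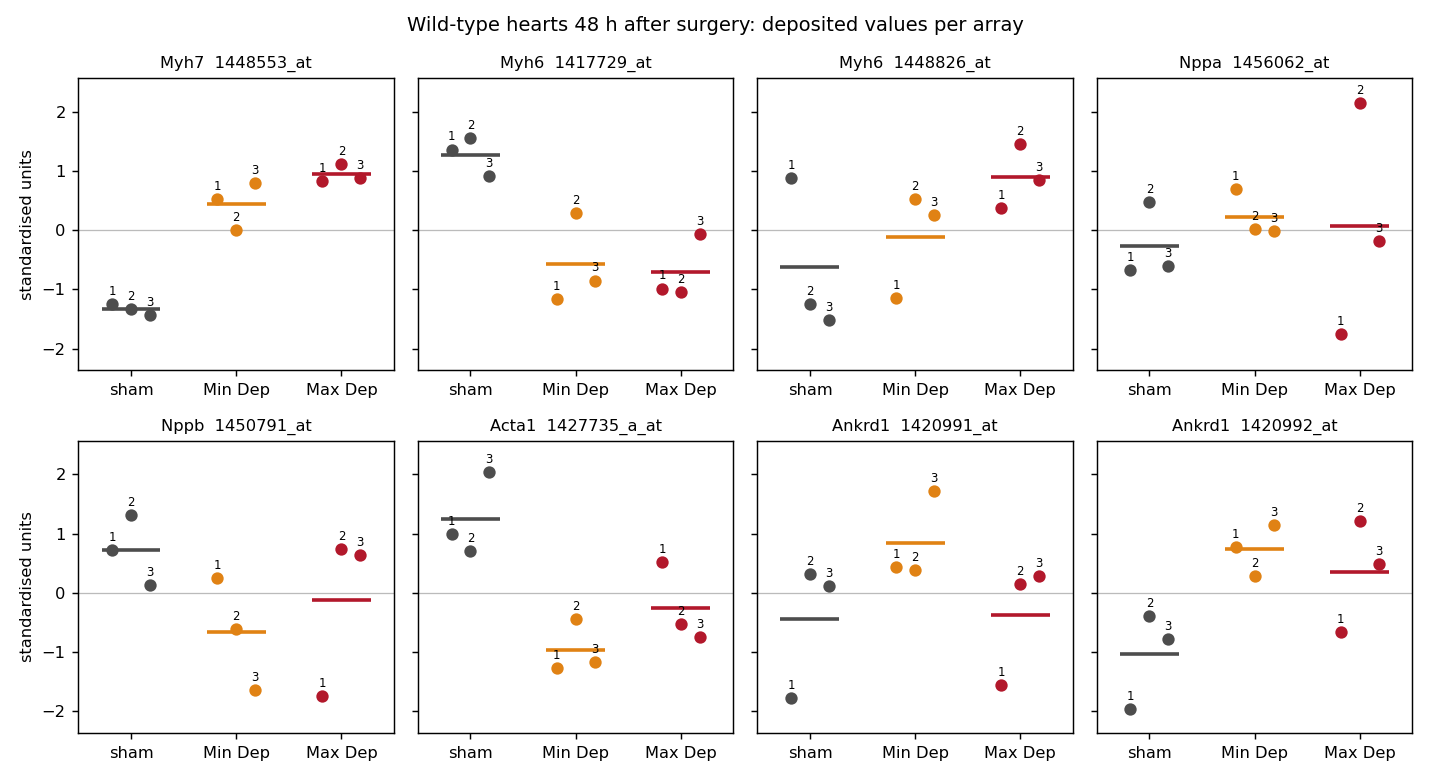
Deposited values of the 8 member probe sets in wild-type hearts 48 h after surgery, in standardised units on the vertical axis, by group on the horizontal axis. Points are single arrays with their replicate number and bars are group means (n = 3). Myh7 is the panel in which sham hearts (-1.44 to -1.25) lie below every septic heart (-0.01 to 1.12), while the Nppa groups overlap throughout.

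The 2 probe sets of Myh6 did not give the same picture. By probe set 1417729_at, Myh6 was at 1.36, 1.55 and 0.91 standardised units in the sham hearts. It was at -1.16, 0.29 and -0.85 in the Min Dep hearts and at -0.99, -1.05 and -0.06 in the Max Dep hearts. Every septic heart lay below every sham heart, the mirror image of Myh7, with a difference of -1.91 ± 0.41 (SE, limma adjusted p = 0.0700) that did not pass the test. The difference was -1.98 ± 0.47 in Max Dep hearts (limma adjusted p = 0.0990) and -1.85 ± 0.47 in Min Dep hearts (limma adjusted p = 0.139). Leaving out Min Dep replicate 2, the septic heart with the highest value, took it to -2.13 with a limma adjusted p of 0.0470.

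By probe set 1448826_at, Myh6 was at 0.88, -1.24 and -1.52 standardised units in the sham hearts, at -1.15, 0.52 and 0.26 in the Min Dep hearts and at 0.37, 1.45 and 0.85 in the Max Dep hearts. Sham replicate 1 and Min Dep replicate 1 lay away from the rest of their groups, and the groups overlapped. The septic hearts differed from sham by 1.01 ± 0.69 (SE, 95% interval -0.67 to 2.69, limma adjusted p = 0.477). Without sham replicate 1 the difference was 1.77 (limma adjusted p = 0.207). The values of the 2 Myh6 probe sets had the same sign in 3 of 9 wild-type arrays, with a gap of up to 2.80 standardised units in sham replicate 2. Across the 9 wild-type arrays, which share 1 scaling, Myh7 had a Pearson r of -0.92 with 1417729_at and of 0.55 with 1448826_at, given as description. Which of the probe sets reports the Myh6 transcript was not tested, and the mean of both was not called in either table.

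The other Myh6 probe set was the one that separated the groups in the knockout hearts. Probe set 1448826_at was at 2.61, 2.28 and 2.66 log units in the 3 sham hearts and at -0.76, -1.49 and -0.60 in CLP replicates 1, 2 and 3. CLP replicates 2 and 3 lay far below all sham hearts, as did the doubted replicate 1. With CLP replicates 2 and 3 the difference was -3.57 ± 0.50 (SE, n = 2 and 3), which ranked 52nd by p in the table (unadjusted p = 0.00033) but did not pass the adjustment (limma adjusted p = 0.136). With all 6 knockout arrays it was -3.47 and passed (limma adjusted p = 0.0318). That fit counts the doubted CLP replicate 1 as a separate heart, which was not settled, so the pass depends on it. Probe set 1417729_at was at 1.70, 0.00 and 0.35 log units in the sham hearts and at -0.96, -2.76 and 0.64 in the CLP hearts. The groups overlapped through CLP replicate 3, and the difference was -1.74 ± 1.09 (SE, limma adjusted p = 0.647). It was -3.44 without CLP replicate 3 and -0.04 without CLP replicate 2. The signs of the 2 probe sets matched in 4 of 6 knockout arrays. The difference of 1448826_at was thus negative in knockout and positive in wild-type hearts, which was not tested across the tables.

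Myh7 in the knockout hearts was at 1.06, -2.26 and 0.00 log units in the sham hearts and at 1.73, 3.89 and 2.50 in CLP replicates 1, 2 and 3. CLP replicates 2 and 3 were above all 3 sham hearts, as was the doubted replicate 1, although the sham hearts spread over 3.32 log units. The difference was 3.60 ± 1.05 (SE, n = 2 and 3, 95% interval 1.05 to 6.14, unadjusted p = 0.0134, limma adjusted p = 0.284) and did not pass. It was 2.66 without sham replicate 2, the array that stood apart by its Xist and Eif2s3y values.

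**Figure D2:**
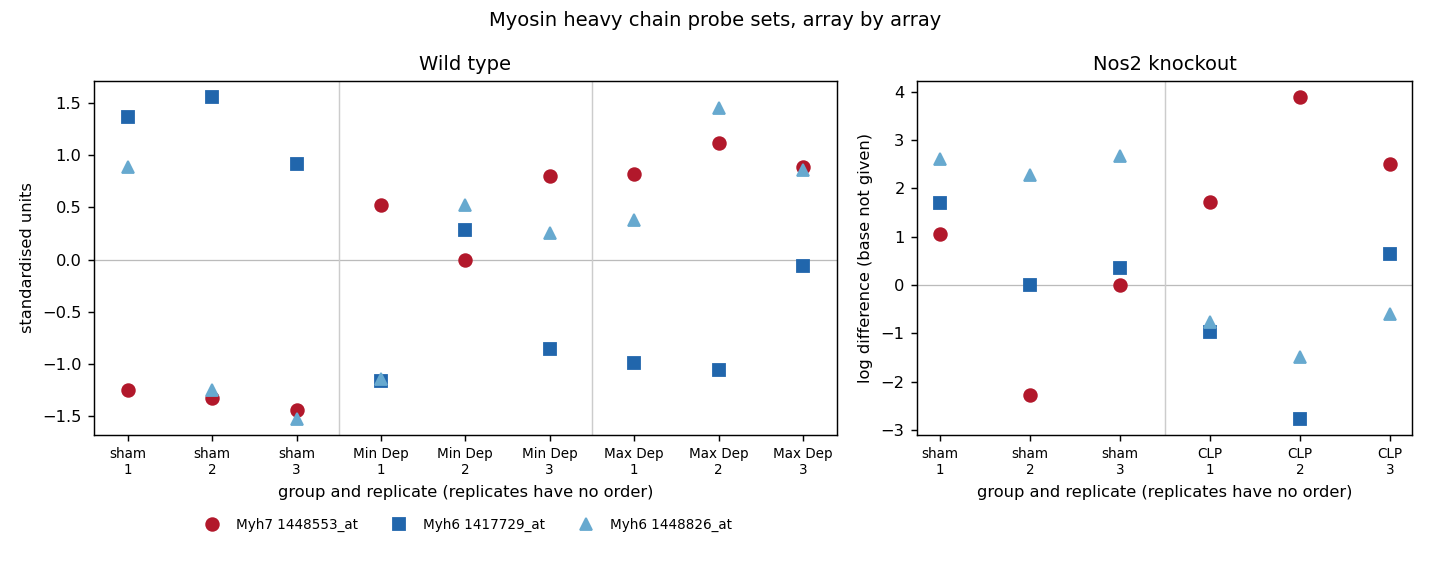
The Myh7 probe set (circles) and the 2 Myh6 probe sets (squares and triangles) array by array, in standardised units for wild-type hearts and in log units of unstated base for knockout hearts, with arrays along the horizontal axis. In wild-type hearts the squares (1417729_at) mirror Myh7 and the triangles (1448826_at) do not, while in knockout hearts the triangles sit between 2.28 and 2.66 in sham and between -1.49 and -0.60 in CLP.

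Neither natriuretic peptide gene passed the test in either genotype. Nppa was at -0.68, 0.48 and -0.61 standardised units in the wild-type sham hearts and at 0.69, 0.02 and -0.02 in the Min Dep hearts. In the Max Dep hearts it was at -1.75, 2.15 and -0.19, so this group held both the lowest and the highest of the 9 values. Septic and sham hearts differed by 0.42 ± 0.86 (SE, 95% interval -1.68 to 2.53, limma adjusted p = 0.838), and without Max Dep replicate 2 the difference was -0.10. In the knockout table Nppa was at 4.95, -0.62 and 0.99 log units in the sham hearts and at 0.28, -1.58 and 5.28 in the CLP hearts. Each group held 1 high value, and the difference was 0.08 ± 2.37 (SE, 95% interval -5.69 to 5.84, limma adjusted p = 0.996). The interval includes large changes in either direction.

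Nppb, the BNP gene, was at 0.72, 1.32 and 0.14 standardised units in the wild-type sham hearts, at 0.25, -0.61 and -1.64 in the Min Dep hearts and at -1.74, 0.75 and 0.65 in the Max Dep hearts. The groups overlapped, with 3 of the 6 septic hearts below all sham hearts and none above them. The difference was -1.11 ± 0.73 (SE, 95% interval -2.91 to 0.68, limma adjusted p = 0.464), and -0.71 without Max Dep replicate 1. Knockout hearts had Nppb at -3.50, 1.54 and 0.00 log units in sham and at 0.70, 3.47 and 1.82 in CLP. CLP replicates 2 and 3 were above all sham hearts and replicate 1 was not, and the difference of 3.30 ± 1.48 did not pass (SE, limma adjusted p = 0.499). It was 1.87 without sham replicate 1. The signs of the Nppb difference were thus opposite in the 2 genotypes, but neither passed its test and the difference between them was not tested, since genotype, table and array model go together.

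Acta1, the skeletal alpha-actin gene, had lower values in septic than in sham wild-type hearts, the reverse of the usual fetal pattern, without passing the test. It was at 1.00, 0.70 and 2.04 standardised units in the sham hearts, at -1.27, -0.44 and -1.17 in the Min Dep hearts and at 0.52, -0.52 and -0.74 in the Max Dep hearts. All 6 septic hearts lay below all sham hearts, and Max Dep replicate 1 came nearest to them. The difference was -1.85 ± 0.44 (SE, limma adjusted p = 0.0884), with -2.21 ± 0.51 in Min Dep hearts (limma adjusted p = 0.119) and -1.50 ± 0.51 in Max Dep hearts (limma adjusted p = 0.190). Knockout hearts had Acta1 at 0.09, 3.46 and 0.00 log units in sham and at 1.29, -0.03 and 5.07 in CLP, with overlap and a difference of 1.34 ± 1.73 (SE, limma adjusted p = 0.862). Without CLP replicate 3 that difference was -1.21.

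For Ankrd1, the titin-binding stress protein, the 2 probe sets ran together in most arrays, with the same sign in 7 of 9 wild-type and 6 of 6 knockout arrays. By probe set 1420992_at it was at -1.96, -0.39 and -0.77 standardised units in the wild-type sham hearts, at 0.77, 0.29 and 1.14 in the Min Dep hearts and at -0.67, 1.21 and 0.49 in the Max Dep hearts. All septic hearts but Max Dep replicate 1 were above all sham hearts. The difference was 1.58 ± 0.54 (SE, 95% interval 0.26 to 2.90, unadjusted p = 0.0263, limma adjusted p = 0.179). By probe set 1420991_at it was at -1.77, 0.32 and 0.11 in sham, 0.43, 0.39 and 1.72 in Min Dep and -1.55, 0.15 and 0.29 in Max Dep, a difference of 0.69 ± 0.70 (SE, limma adjusted p = 0.650). Both probe sets were lowest in sham replicate 1, the array that stood apart, and without it the differences were 1.12 and 0.02.

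Knockout hearts had Ankrd1 1420992_at at -0.80, -1.66 and 1.19 log units in sham and at 1.51, 2.40 and 2.30 in CLP. Probe set 1420991_at was at -1.76, -0.09 and 1.44 in sham and at 1.65, 1.72 and 3.41 in CLP. By both probe sets CLP replicates 2 and 3 were above all 3 sham hearts, as was the doubted replicate 1. The differences with CLP replicates 2 and 3 were 2.77 ± 0.87 (SE, unadjusted p = 0.0185, limma adjusted p = 0.324) and 2.70 ± 1.03 (SE, unadjusted p = 0.0392, limma adjusted p = 0.420).

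**Figure D3:**
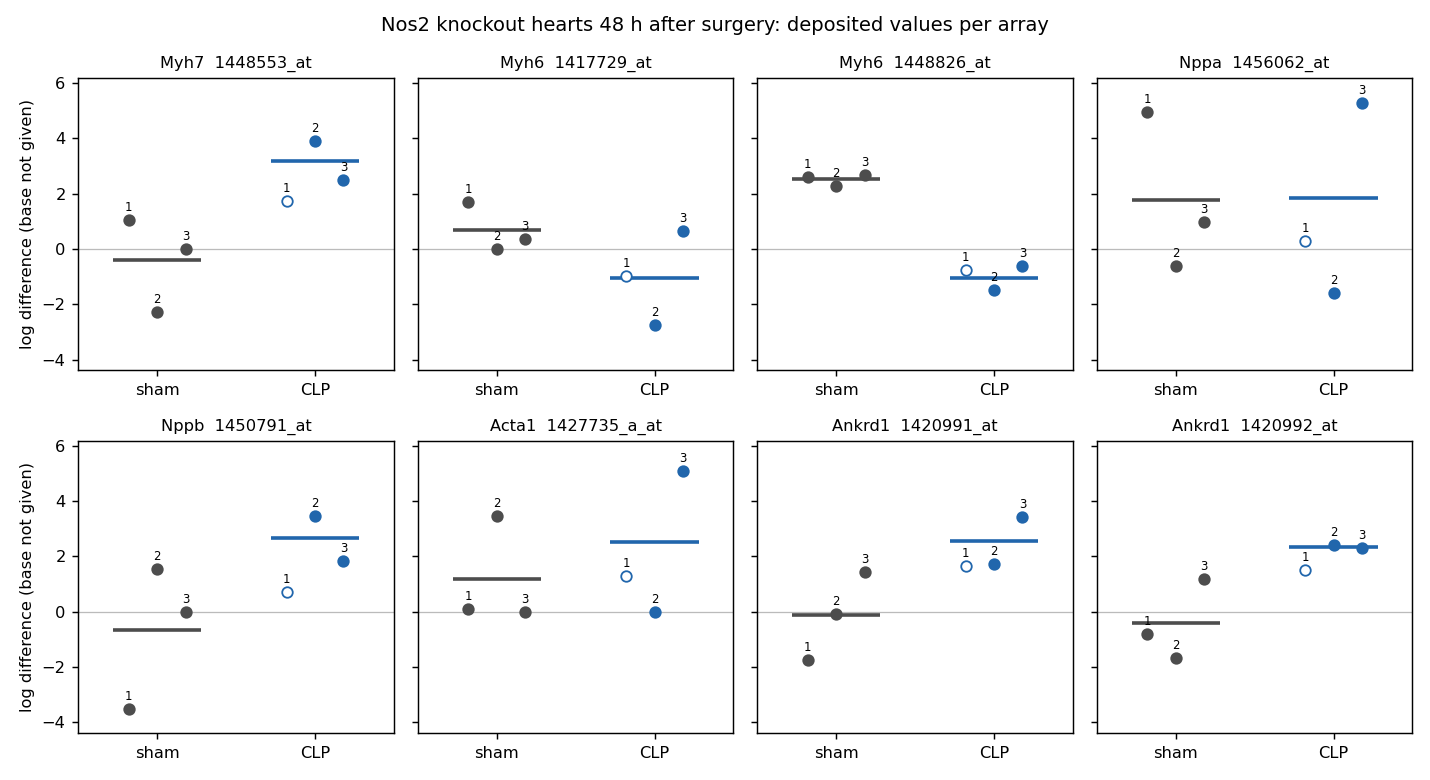
Deposited values of the 8 member probe sets in Nos2 knockout hearts 48 h after surgery, in log units of unstated base on the vertical axis, by group on the horizontal axis. Points are single arrays, the hollow point is CLP replicate 1, which was left out of the fit, and bars are means of the filled points. Myh6 1448826_at shows the tightest sham group (2.28 to 2.66), and Nppa and Acta1 the widest CLP groups.

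No member passed an adjusted p of 0.05 in the knockout hearts (0 of 8), where limma called 0% of all probe sets. At an unadjusted p under 0.05 the members counted 4 of 8, namely Myh7 and both Ankrd1 probe sets higher and Myh6 1448826_at lower, against 10.9% of all probe sets. With all 6 arrays, the doubted CLP replicate 1 included, 1 member, Myh6 1448826_at, passed. Calls over all probe sets also rose from 0 in that fit, as given below with the other alternatives. The groups did not overlap for 5 of 8 members in knockout hearts (Myh7, Nppb and both Ankrd1 probe sets higher and Myh6 1448826_at lower, with CLP replicates 2 and 3), against 27.7% of all probe sets. In wild-type hearts 3 of 8 did not overlap between all septic and sham hearts (Myh7 higher, Myh6 1417729_at and Acta1 lower), against 14.0% of all. The same 3 did not overlap between Max Dep and sham (29.4% of all probe sets). In Min Dep against sham both Ankrd1 probe sets joined them, 5 of 8 against 24.4% of all. Between Max Dep and Min Dep 2 of 8 did not overlap, Myh7 higher and Ankrd1 1420991_at lower in Max Dep, against 15.4% of all. The median difference over the 8 members was 0.55 standardised units in wild-type septic hearts, where the median over all probe sets was 0.05, and 2.02 log units in knockout hearts, where it was 0.04.

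**Figure D4:**
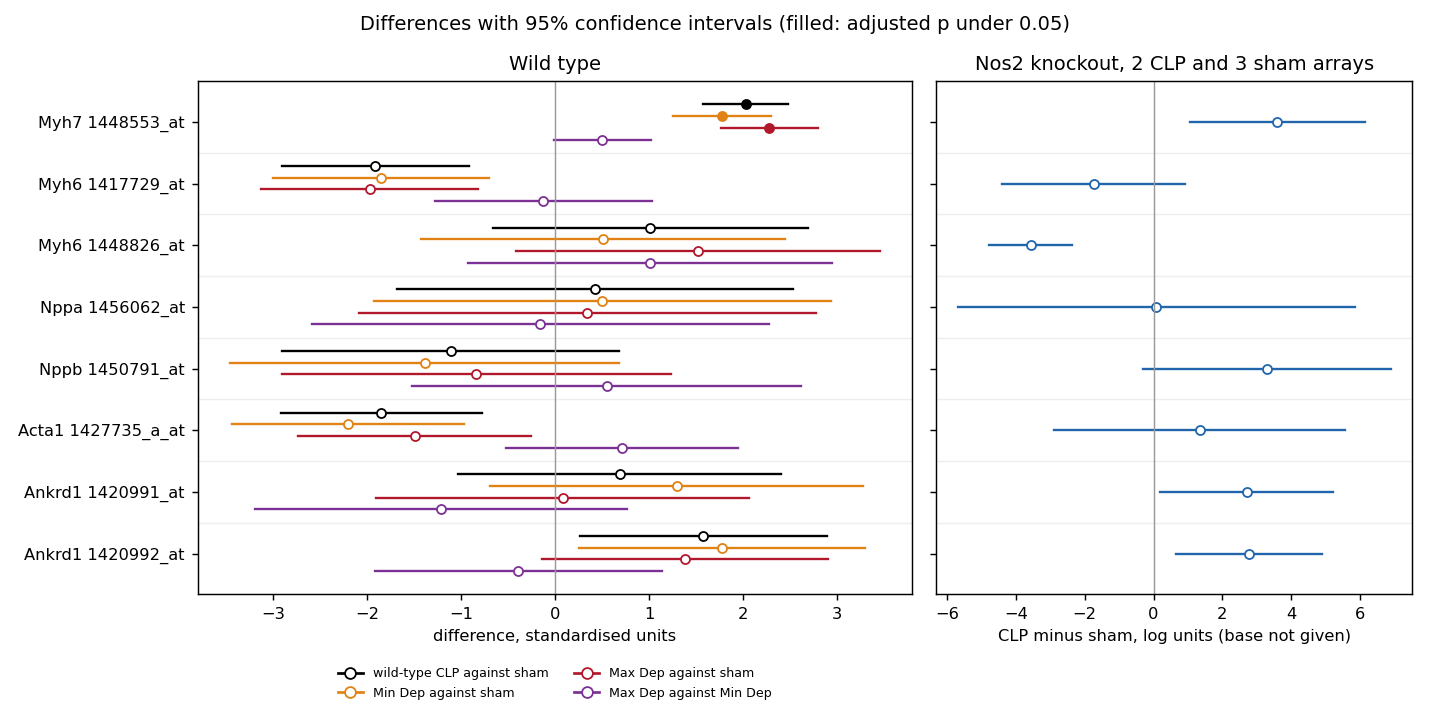
Differences of the 8 member probe sets with 95% confidence intervals, in standardised units for the 4 wild-type comparisons and in log units of unstated base for knockout CLP minus sham (2 and 3 arrays). Filled points, seen only for Myh7 in the 3 wild-type comparisons with sham, passed an adjusted p of 0.05. The Nppa intervals reach from -1.68 to 2.53 in wild-type and from -5.69 to 5.84 in knockout hearts.

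Single hearts differed in more than 1 member. Among the 6 septic wild-type hearts, Max Dep replicate 1 was lowest for Nppa (-1.75), Nppb (-1.74) and both Ankrd1 probe sets (-1.55 and -0.67), and highest for Acta1 (0.52). Max Dep replicate 2 was highest for Nppa (2.15), Nppb (0.75), Ankrd1 1420992_at (1.21), Myh7 (1.12) and Myh6 1448826_at (1.45). Myh7 was at 0.82 and 1.12 in the same hearts, the lowest and the highest value of the Max Dep group.

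Genes around the members were described by 9 lists of 148 genes, of which 127 had a probe set of their own (241 probe sets). In septic against sham wild-type hearts 7 of these 241 probe sets passed (2 higher, 5 lower), 2.90% against 2.57% of all probe sets. The share was 1.66% in Max Dep (1.71% of all) and 0.415% in Min Dep hearts (0.522% of all), so the lists as a whole stood near the background. Without any 1 of the sham arrays, or without Max Dep replicate 1, no probe set of the whole table was called in septic against sham hearts, and without Min Dep replicate 1 only 1 was. None passed in Max Dep against Min Dep, with 16 higher and 4 lower at an unadjusted p under 0.05 (9.84% of all probe sets). None passed in the knockout fit, with 5 higher and 24 lower at that p (10.9% of all probe sets).

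Among contractile proteins, cardiac troponin C (Tnnc1), the calcium sensor of the thin filament, was the 1 of 29 thin-filament probe sets that passed. It fell by 1.95 standardised units in septic wild-type hearts (limma adjusted p = 0.0443). No probe set of the other myosin heavy chains passed (0 of 14 by limma). There the smallest p-values were those of Myh14, a non-muscle chain, at 1.65 and of Myh11, the smooth muscle chain, at -1.62. Among myosin light chains and thick-filament genes none passed either (0 of 18 by limma), with the M-band gene Myom2 at 1.86 and the kinase gene Mylk at -1.89. In knockout hearts the smallest p-values in these lists belonged to Myh11 (-3.09 log units), Myh1 (1.94), Myl9 (-3.08), Myom2 (-2.23), Tnnt2 (-2.16) and Actc1 (-3.59), none past the adjusted threshold. The other Myh1 probe sets were at -1.15 and -0.25 and the other Myh11 probe set at -0.27 log units. The mean of smooth muscle and pericyte probe sets, a list that includes Myh11, was -1.20 in CLP and 0.98 in sham knockout hearts, and its part in their values was not tested. Myom2 had opposite signs in the 2 genotypes, a difference that was not tested.

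The other fetal and hypertrophic stress genes had 1 of 36 probe sets past the threshold. Cryab, a small heat-shock protein of the sarcomere, rose by 1.80 standardised units in septic wild-type hearts by probe set 1434369_a_at (limma adjusted p = 0.0413) and by 2.31 in Max Dep hearts (limma adjusted p = 0.0427). Its other probe sets were at 1.70 and -0.56. In knockout hearts the same Cryab probe set was at 2.20 log units (limma adjusted p = 0.297), with the others at 2.28 and -2.33. The list's median was -0.75 in septic wild-type hearts, with 24 of 36 probe sets negative. In Min Dep hearts its smallest p-values were those of the matrix genes Vcan (-2.16) and Postn (-2.10), with limma adjusted p of 0.126 and 0.137.

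Natriuretic peptide processing enzymes, receptors and cyclic GMP targets had no probe set past the threshold (0 of 19 by limma). The smallest p-values were those of Pde2a, a cyclic GMP-stimulated phosphodiesterase, at 1.41, and of Mme, the peptide-degrading neprilysin, at -1.61 standardised units. In knockout hearts Pde2a was at -4.12 and the receptor gene Npr2 at -2.997 log units (limma adjusted p = 0.137 and 0.182).

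Of the cardiac and stress transcription factors 1 of 75 probe sets passed in septic wild-type hearts. Mef2c, which drives muscle gene expression downstream of calcium signals, rose by 1.95 standardised units by probe set 1421027_a_at (limma adjusted p = 0.0424), and all 5 of its probe sets were positive (1.23 to 1.95). In Max Dep hearts Mef2c rose by 2.30 (limma adjusted p = 0.0488). Srf, the factor that binds CArG boxes, rose there by 1.87 by probe set 1418255_s_at (limma adjusted p = 0.0472), but its other probe set was at -1.70. The same Srf probe set was 2.47 higher in Max Dep than in Min Dep hearts (limma adjusted p = 0.206), without passing. In knockout hearts the smallest p-values were those of Mef2d (-3.52 log units) and of the chromatin remodeller Smarca4 (3.11), with limma adjusted p of 0.137 and 0.151. The other probe set of each was at -0.47 for Mef2d and 0.24 for Smarca4. The Mef2d probe set at -3.52 was at 1.51 standardised units in septic wild-type hearts, and the difference between the genotypes was not tested. Thyroid hormone action, a main regulator of the Myh6 to Myh7 balance in rodents, had no probe set past the threshold (0 of 21 by limma). The coactivator gene Med1 was at 1.79 and the receptor gene Thra at 1.22 standardised units, with limma adjusted p of 0.0580 and 0.103. The other Med1 probe sets were at -0.76 to 1.06. In knockout hearts the same Med1 probe set was at 4.44 log units (limma adjusted p = 0.260), with the others at -0.18 to 3.55. Both Thra probe sets were positive in wild-type (1.22 and 1.24) and negative in knockout hearts (-2.11 and -2.01 log units, limma adjusted p = 0.222 and 0.210), none passed, and the difference between the genotypes was not tested.

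Of calcineurin, CaMKII and PKD signalling 2 of 28 probe sets passed, both lower. Rcan2, a calcineurin regulator, fell by 2.17 standardised units by probe set 1450243_a_at in septic wild-type hearts (SE 0.13, limma adjusted p = 0.0196), by 2.23 in Max Dep hearts and by 2.10 in Min Dep hearts (limma adjusted p = 0.0258 and 0.0318). Its other probe set was at 0.80. Ppp3cb, a calcineurin catalytic subunit, fell by 2.01 by probe set 1427468_at (limma adjusted p = 0.0399), with its other probe set at -0.61. Of the partners of Ankrd1 in the titin complex and the I-band 2 of 17 probe sets passed. These were Nebl, a Z-disc nebulin relative, which fell by 2.06 (limma adjusted p = 0.0334), and Ldb3, a Z-disc scaffold, which fell by 2.04 by probe set 1451999_at (limma adjusted p = 0.0417). The other Ldb3 probe sets were at 0.36 and 1.00. Of the 8 genes named as passing, 6 (Cryab, Mef2c, Srf, Rcan2, Ppp3cb and Ldb3) have several probe sets, and no more than 1 of them was called in any comparison.

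The probe sets whose values over the 9 wild-type arrays were most like those of Myh7 belonged to Oard1 (Pearson r 0.995), Ipo4 (0.986), Ybx3, Eef1d, Rps24 and Coro6 (0.976). Those most opposite belonged to Opa1 (-0.981), Pdha1, Mrps2, Cd59a, Rassf3 and Gpam (-0.970). They were picked from 20372 probe sets of other single genes, and all arrays share 1 scaling, so these values are a description. Of these 12 probe sets 8 had, in the knockout hearts, a CLP difference of the same sign as in wild-type hearts, and none passed its test there. Ybx3, Eef1d and Rps24 also ran with Myh7 over the 6 knockout arrays (r 0.866, 0.867 and 0.877), whereas Oard1 did not (-0.193).

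Markers of several other cell types moved with the same groups. The mean of 15 macrophage and monocyte probe sets lay between -1.45 and -0.48 standardised units in wild-type sham hearts, between -0.07 and 0.55 in Min Dep and between 0.58 and 1.06 in Max Dep hearts. All 15 had a positive septic difference and 4 passed. The mean of 7 neutrophil probe sets was at -0.60 or lower in every sham heart and at 0.18 to 0.91 in septic hearts, with 2 passing. The mean of 15 fibroblast probe sets was at 0.93 to 1.16 in sham and at -1.72 to 0.32 in septic hearts, with 1 passing. The means of adipocyte, erythroid and smooth muscle probe sets were also above 0 in every sham heart. Septic hearts reached -0.02 for adipocyte, 0.36 for smooth muscle and 0.90 for erythroid probe sets. The erythroid mean thus overlapped with that of the sham hearts (0.40 to 1.31). The endothelial mean overlapped too, at -1.01 to 0.56 in sham, 0.09 to 0.18 in Min Dep and -0.51 to 0.57 in Max Dep hearts. The part of these markers in the Myh7 and Acta1 values was not tested.

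Markers of ventricular, atrial and skeletal muscle overlapped between the wild-type groups. The mean of 21 cardiomyocyte probe sets was at 0.16 to 0.50 in sham, -0.78 to 0.28 in Min Dep and -0.40 to 0.42 in Max Dep hearts. Of these 21, 2 passed in septic against sham hearts, both lower and one of them Tnnc1 (9.52% against 2.57% of all probe sets), and 1 each in Max Dep and Min Dep against sham, both lower. Their part in the members' values was not tested. The mean of 12 atrial probe sets was at -0.44 to 0.34 in sham, -0.21 to 0.66 in Min Dep and -0.82 to 0.31 in Max Dep hearts, and that of 15 skeletal muscle probe sets overlapped likewise. In the knockout hearts the mean of 15 endothelial probe sets was at -3.19 to -1.19 in CLP and at 0.68 to 2.40 log units in sham, and macrophage markers were at 1.45 to 2.42 against -0.62 to 0.15. Neutrophil markers were at 1.17 to 2.09 in CLP and at -0.32 to 0.06 in sham, smooth muscle and pericyte markers at -1.48 to -1.05 and at 0.69 to 1.25, and fibroblast markers at -1.38 to -0.18 and at 0.22 to 0.90. The cardiomyocyte mean was at -1.04 to 0.41 in CLP and at -0.72 to 0.54 in sham. The part of these markers in the knockout differences of Myh7, Myh6, Nppb and Ankrd1 was not tested. The 5′ minus 3′ difference of the array's control probe sets served as a relative measure of RNA integrity. It was taken between centred scores, so it compares the arrays of a genotype and is not a 5′ to 3′ signal ratio. It averaged 0.90 ± 0.75 over the wild-type sham arrays, -0.19 ± 0.33 over the Min Dep arrays and -0.71 ± 1.19 over the Max Dep arrays (SD, n = 3). It averaged -1.30 ± 0.67 over the knockout CLP arrays and -0.26 ± 1.53 over the knockout sham arrays (SD, n = 3), and its part in the knockout values was not tested. In wild-type hearts, with this difference as a covariate the Myh7 difference was 2.03 with a limma adjusted p of 0.108.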

How the data were processed

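Hearts were powdered, RNA was extracted with Trizol and biotin-labelled for 2 array models, per the labels' protocols. The authors deposited 1 table of scores per model. The wild-type scores have mean 0 and SD 1 in every array, and undoing 1 linear step per array gives every probe set mean 0 and SD 1 over the 9 arrays. The knockout scores are log-like differences whose base and centre are not given in the sources used here, nor is the software. Probe sets were named through GEO's platform annotation: of 22690 in each table, 64 controls were left out, 691 name several genes and 1555 none.

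Wild-type arrays were fitted with limma 3.58.1 in R 4.3.3 (3 groups, unmoderated statistics with 6 residual degrees of freedom, since moderation pulls standardised rows to a common spread). Knockout arrays were fitted apart with eBayes, without CLP replicate 1. p-values were adjusted by Benjamini-Hochberg over 22626 probe sets at 0.05. The scripts were tested on simulated data. Columns of other series numbered 0.

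Every member probe set is named. List genes were named only from those past the threshold (at most 4 per list and comparison) or, where none passed, the 2 of smallest p. The 6 probe sets most and the 6 least like Myh7 are named too. The members, lists, tests and the array left out were chosen with earlier results of these data known. Alternatives were other moderation, undone array scaling, single-gene probe sets, gene means, the control difference as covariate, only the arrays compared, all knockout arrays, and each array left out.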

Additional observations from a re-analysis of the deposited data

Results flagged for a closer look

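The 2 probe sets paired with both Myh7 and Myh6, which the comparisons of the report leave out, also carried a signal in the wild-type hearts, and in opposite directions. Probe set 1448554_s_at was at -1.29, -0.70 and -1.50 standardised units in the sham hearts, at 0.36, 0.09 and 0.57 in the Min Dep hearts and at -0.33, 1.29 and 1.64 in the Max Dep hearts. All 6 septic hearts were above all sham hearts, with a difference of 1.77 (limma adjusted p = 0.110). Probe set 1448827_s_at was at 1.34, 1.36 and 1.42 in the sham hearts, at -0.55, -0.67 and -1.07 in the Min Dep hearts and at -1.22, -0.71 and -0.05 in the Max Dep hearts. All 6 septic hearts were below all sham hearts, and the difference of -2.09 passed (limma adjusted p = 0.0293). In the knockout hearts their differences were -2.23 and -0.42 log units, with overlapping groups and limma adjusted p of 0.589 and 0.925. Which transcript each of them measures was not tested.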

How the results depend on the processing

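The Myh7 difference in wild-type hearts kept its sign under every alternative run, but not its side of the threshold. Moderated statistics called 0 member probe sets and 0 of all probe sets in septic, Max Dep and Min Dep against sham hearts alike, and the control difference as a covariate gave 0 and 0 in all 3 too. With only the 6 arrays compared, Max Dep gave 0 members and 0 of all, and Min Dep 0 members and 2 of all. Single-gene probe sets gave 220 calls for Max Dep. Gene means gave 89, 56 and 7 calls for septic, Max Dep and Min Dep hearts and 0 members for Min Dep. All 6 knockout arrays, the doubted CLP replicate 1 included, gave 1 member and 210 of all, against 0 and 0 without that array.

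Leaving out 1 array at a time, the members called ranged from 0 to 2 in septic, 0 to 1 in Max Dep and 0 to 0 in Min Dep against sham hearts. Calls over all probe sets ranged from 0 to 520, 0 to 153 and 0 to 72, and from 0 to 2 for Max Dep against Min Dep. In the knockout hearts both stayed at 0. Myh7 passed in 4 of 9 such fits for septic, 2 of 9 for Max Dep and 0 of 9 for Min Dep hearts. Leaving out an array reduces the degrees of freedom.

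Signs turned as follows. The mean of the Myh6 probe sets was -0.45, -0.23 and -0.67 for septic, Max Dep and Min Dep hearts, against positive values of 1448826_at alone, and 0.44 for Max Dep minus Min Dep, against -0.12 of 1417729_at alone. Nppa was 0.18 for Max Dep minus Min Dep with the covariate and -0.45 in knockout hearts with all arrays. Left-out arrays took Nppa over -0.10 to 0.88 in septic, -0.70 to 1.25 in Max Dep, -1.20 to 0.75 in Max Dep minus Min Dep and -3.35 to 3.51 in knockout hearts. They took Ankrd1 1420991_at over -0.58 to 0.67 in Max Dep hearts, and Acta1 over -1.21 to 3.88 in knockout hearts. For Max Dep minus Min Dep they took Ankrd1 1420992_at over -0.82 to 0.12 and Myh6 1417729_at over -0.44 to 0.31. The cause of these turns was not tested beyond the arrays named.

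No paired analysis was made, since each array carries its own animal code and the labels name no pairs. Undoing the array scaling and centring the knockout arrays on their medians left every count within 1.5 times the reported one.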
